A study of Mus musculus with 4 samples.

Results

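Ribosomal proteins of the cytosol form the small and the large subunit of the ribosome together with ribosomal RNA. The small subunit reads the messenger RNA, and the large subunit joins the amino acids. Most cells need every ribosomal protein in step with the others. Their mRNAs carry a run of pyrimidines, the TOP element, at the very start of the transcript. Through this element the kinase complex mTORC1 and the binding protein LARP1 set how strongly the mRNAs are translated and how long they last. In blood formation the genes are best known from Diamond-Blackfan anaemia, in which the loss of 1 copy of a single ribosomal protein gene starves the red cell lineage.

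The 43 genes described here were found by their symbols among 30142 genes measured in the series, with the probe set of the highest mean signal standing for a gene. A symbol had to follow the pattern of a ribosomal protein of the cytosol (Rpl or Rps with a number, Rplp0 to Rplp2, or Rpsa), and the probe set had to list no other symbol. Of the 43, 18 carry a small subunit symbol and 25 a large subunit symbol. RefSeq gives 40 as protein-coding and 3, Rps3a2, Rps3a3 and Rpl6l, as pseudogenes. A further 40 symbols of the pattern, among them Rpl3, Rpl5, Rpl10, Rpl13a, Rplp1, Rplp2, Rps6 and Rps27, are listed only on probe sets that name several genes, and no value is given to them by name. Ribosomal protein genes have many near-identical processed copies in the genome, and a probe set can read several of them. For 6 of the 43 (Rpl7a, Rpl12, Rpl27, Rpl31, Rpl35 and Rpl41) the chosen probe set carries another chromosome in its identifier than RefSeq gives for the gene, so its signal may hold copies of the gene.

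The study put Lin- c-Kit+ cells (LK cells), a bone marrow fraction rich in stem and progenitor cells, from NOD mice into StemSpan medium at 37 °C for 4 h. The control samples, 2 in number, met DMSO alone and are called vehicle, and the other 2 met 10 µM dmPGE2 and 10 µM dexamethasone together and are called the combination. dmPGE2 is a stabilised analog of prostaglandin E2 and dexamethasone is a synthetic glucocorticoid, and no sample met 1 drug alone. The design text names the duplicates biological, but the labels do not say which animals or how many gave the cells, so p-values measure the spread between these samples. Values are log2 RMA signals of whole-transcript arrays, 1 array per sample, and a difference is combination minus vehicle. Arrays have no read depth, and their number limits the precision.

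The progenitor markers were there: all 7 measured ones lay above the highest background probe set (5.55) on every array, Kit between 9.62 and 10.51. Of 10 measured markers of mature lineages, 3 (Itgam, Adgre1 and Siglech) did so. The summed signal of these 10 was 9.53 to 9.66 (log2) on the vehicle arrays and 10.12 to 10.55 on the combination arrays. Its members differed in both directions: Itgam differed by 1.25, Adgre1 by -0.56, Siglech by 0.13 and Ly6g, which was near background, by -0.33. The summed signal of the progenitor markers was 17.91 to 18.18 and 17.67 to 17.92. All 7 were lower on average with the combination, with a median difference of -0.23 and the lowest, -0.51, for Myb. In RNA from a mixed fraction, fewer cells of a type and less RNA per cell cannot be told apart. The part of either marker list in the results on ribosomal protein genes was not tested.

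No ribosomal protein gene passed limma's threshold in either direction. Over all 65956 features tested, 0.00303% had an adjusted p under 0.05, and among the 43 genes the smallest adjusted p was 0.89. At an unadjusted p under 0.05, 1 gene was lower, Rps26, and 0 were higher, against 2.44% and 3.14% of all features. The median log2 difference of the 43 was -0.039, beside 0.025 for all features tested. The 43 differences ran from -0.34 to 0.19, and 29 of them were smaller than 0.1 in either direction. Each has a 95% interval of 0.33 to 0.54 on either side, which is a factor of 1.26 to 1.46. Differences smaller than that could thus not be resolved with 2 arrays per group.

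**Figure D1:**
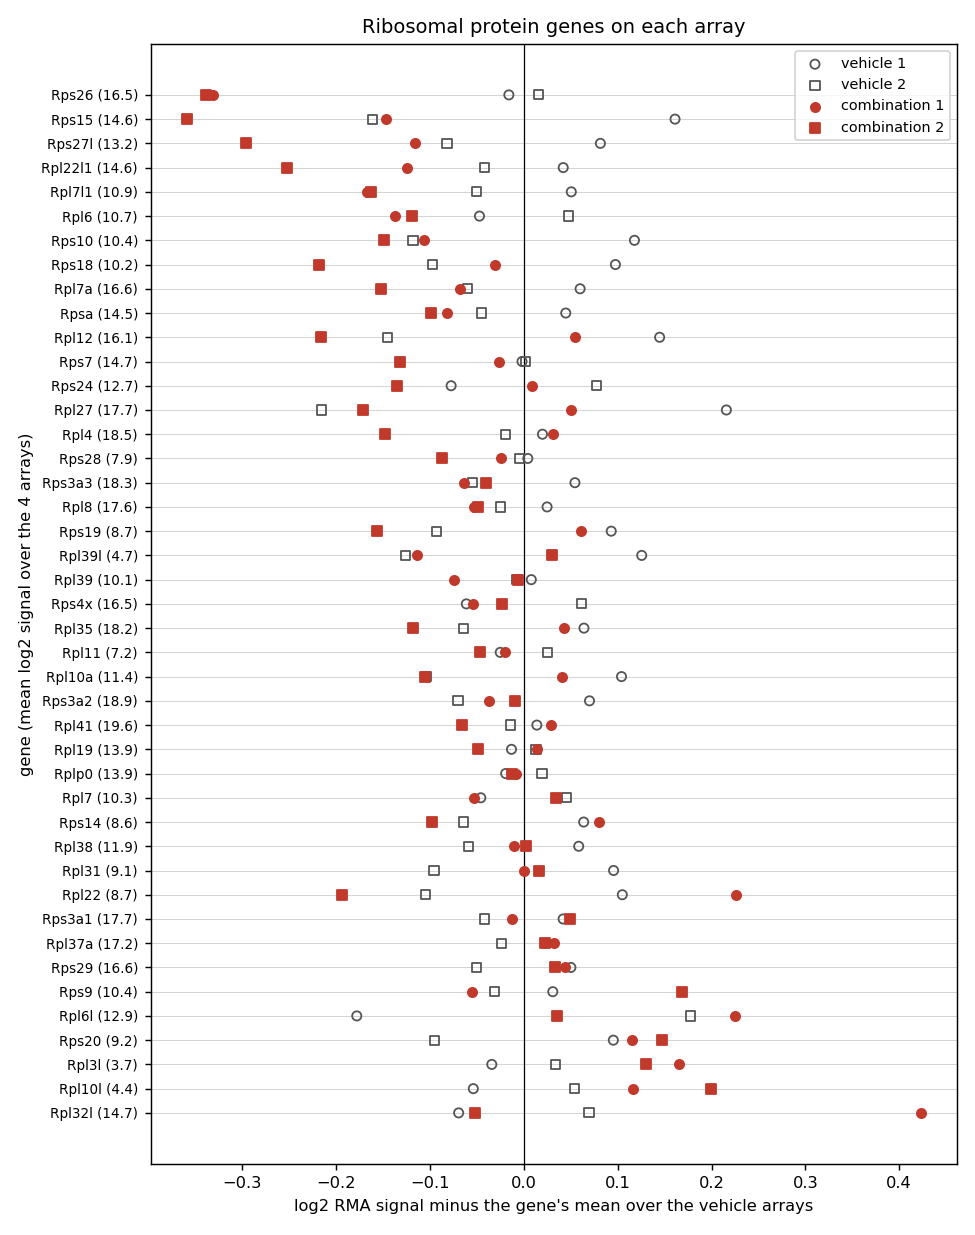
Log2 RMA signal of each of the 43 ribosomal protein genes on the 4 arrays, minus the gene's mean over the vehicle arrays (open grey symbols, vehicle; filled red symbols, combination; circles, replicate 1; squares, replicate 2). Genes run from the lowest difference (Rps26, -0.34) to the highest (Rpl32l, 0.19), and in most rows the red and grey symbols interleave.

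The direction was uneven but shallow. Of the 43 genes, 32 were lower on average in the combination and 11 higher, while 44.6% of all features were lower. A second quantile normalization changed the split to 26 lower genes, and centring each array on its median changed it to 37. Leaving out any 1 array left 23 to 32 lower genes. Most bright genes leaned the same way. Among the 2970 other genes whose mean signal lay between the lower and upper quartile of the ribosomal protein genes (10.13 and 16.53), the median difference was -0.062 and 65.0% were lower. The 14 ribosomal protein genes with a mean above 16 had a median of -0.045, and the 331 other genes above 16 had one of -0.034. Lower were 78.6% of the former and 72.2% of the latter.

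The arrays separated by group at shares near those of the other genes of the same signal range. For 10 of the 43 both combination arrays lay below both vehicle arrays, which is 23.3% of them, against 13.9% of all features and 23.2% of the other genes of the same signal range. For 3 genes (Rps20, Rpl3l and Rpl10l) both lay above, which is 6.98% of them, against 20.4% of all features and 9.73% of the genes of the same signal range. That range spans only the quartiles of the 43, and its genes have a median signal of 11.62 against 13.23. Above 16, both lay below for 21.4% of the 14 ribosomal protein genes and 15.1% of the 331 other genes. Both lay above for 0% and 2.72%. The sizes of the differences were small: their median without sign was 0.056 for the 43 genes and 0.14 for the other genes of the same signal range. Above 16 it was 0.045 for the 14 ribosomal protein genes and 0.052 for the 331 other genes.

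**Figure D2:**
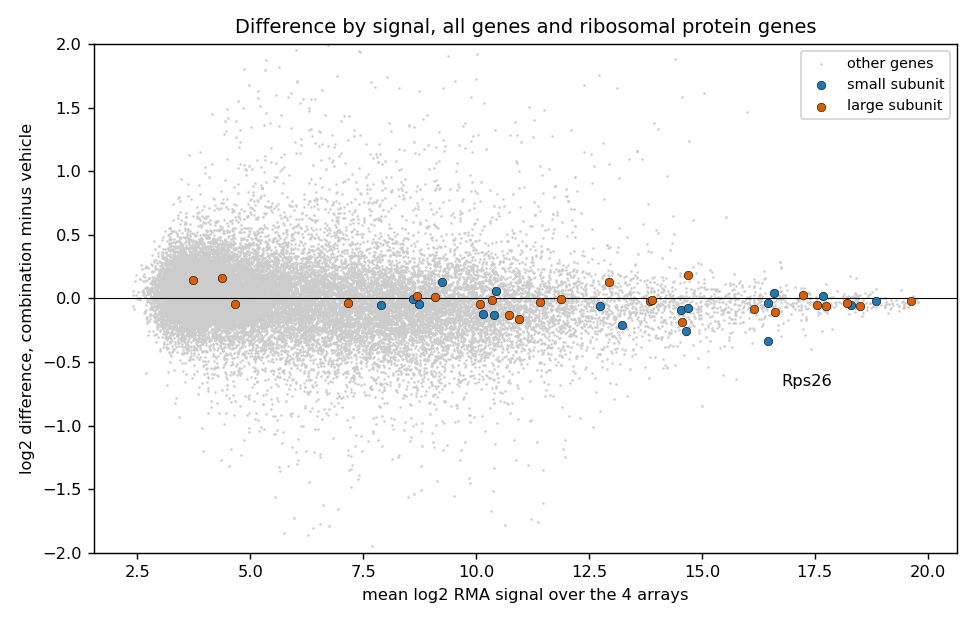
Log2 difference (combination minus vehicle) against the mean log2 RMA signal over the 4 arrays, for ribosomal protein genes (blue, small subunit; orange, large subunit) and all other genes (grey). The vertical axis ends at 2 in both directions, which leaves out 85 other genes, and the ribosomal protein genes stay between -0.34 and 0.19 at every signal.

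Rps26 encodes a small subunit protein at the exit channel of the messenger RNA and is one of the Diamond-Blackfan anaemia genes. Its signal was 16.62 and 16.65 on the vehicle arrays and 16.30 and 16.29 on the combination arrays. The groups did not overlap, and the replicates of each group lay closer together than the groups. The difference was -0.34 (SE 0.12, 95% interval -0.66 to -0.0058), 1.26-fold lower, with an unadjusted p of 0.047 and an adjusted p of 0.89 in limma. Of the 345 genes with a mean above 16, 3 had a lower difference than Rps26. The array has 2 further probe sets for this symbol. One, with another chromosome in its identifier than the gene's, was at 15.66 and 15.80 with vehicle and 15.54 and 15.36 with the combination, again without overlap (difference -0.28, 95% interval -0.66 to 0.098). The other was near background, with a mean of 4.18. The bright pair of probe sets may read the same transcripts and are not replicates of each other.

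Rps15, a protein of the head of the small subunit, had the next lowest difference, -0.25 (95% interval -0.72 to 0.22). Its arrays read 14.93 and 14.61 with vehicle and 14.62 and 14.41 with the combination. Here the groups overlapped, since the lower vehicle array lay beneath the higher combination array, and the difference was -0.092 without vehicle replicate 1 and -0.41 without vehicle replicate 2. Rps10 and Rps18, also of the small subunit, differed by -0.13 and -0.12, and their groups overlapped too. Without vehicle replicate 1 these differences were -0.0097 and -0.027, and without vehicle replicate 2 they were -0.25 and -0.22. For Rps18 the difference was also -0.031 without combination replicate 2 and -0.22 without combination replicate 1.

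The starts of these genes are shown because the TOP element, a feature that the choice of genes did not use, lies there. Each line gives 15 bases before and 15 from the annotated start, from RefSeq on GRCm38.p6, in the direction of the gene. Capitals mark the longest run of at least 8 bases that are all C or T, and windows without capitals hold no such run.
Rps26, chr10:128626492-128626521, minus strand: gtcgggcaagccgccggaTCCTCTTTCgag
Rps15, chr10:80292416-80292445, plus strand: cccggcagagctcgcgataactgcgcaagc
Rps10, chr17:27635230-27635259, minus strand: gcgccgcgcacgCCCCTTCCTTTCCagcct
Rps18, chr17:33955651-33955680, minus strand: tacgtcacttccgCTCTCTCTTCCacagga
Rpl7a, chr2:26910792-26910821, plus strand: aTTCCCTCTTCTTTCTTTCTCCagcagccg
Rpl35, chr2:39005117-39005146, minus strand: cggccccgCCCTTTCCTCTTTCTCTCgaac
Rpl22l1, chr3:28805493-28805522, plus strand: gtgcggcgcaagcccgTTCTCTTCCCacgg
Rpl10l, chr12:66284387-66284416, minus strand: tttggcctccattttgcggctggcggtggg

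Starts were listed for 35 of the 43 genes, 43 starts in all. Rpl6l, Rpl7, Rpl8, Rps14, Rps20, Rps29, Rps3a2 and Rps3a3 had none. A run of at least 8 C or T bases on the strand of the gene was found in 15 of the 43 windows, 34.9%, against 12% of the 32851 starts of all genes. Runs wholly before the annotated start, as in Rpl4, Rpl19, Rpl31 and Rps27l, were counted too, though they lie outside the annotated transcript. Read on the other strand, such a run was in 2.33% of the windows of ribosomal protein genes and 13.2% of all. Rps26, Rps10 and Rps18 hold a run and Rps15 does not. All 4 were among the 32 of the 43 genes that were lower on average. The 15 genes with a run had a median difference of -0.058 and the 20 without one had -0.040. Whether a run goes with the difference was not tested. The 20 include Rpl3l, Rpl10l and Rpl39l, which were near background. For Rpl7a, Rpl12, Rpl27, Rpl31, Rpl35 and Rpl41 the start is that of the gene, while the probe set carries another chromosome in its identifier. A match describes the letters at an annotated start only, which can lie some bases off the start used in these cells.

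Small subunit genes had a median difference of -0.054, with 14 of 18 lower and 5 without overlap in that direction. Those 5 are 27.8% of the small subunit genes, against 13.9% of all features and 23.2% of the genes of the same signal range. The median was -0.018 without vehicle replicate 1 and -0.098 without combination replicate 1. Rpsa, which encodes the laminin receptor homolog on the small subunit, and Rps7 were 2 of those 5. Rpsa read 14.63 and 14.54 with vehicle and 14.50 and 14.48 with the combination. Rps7 read 14.74 and 14.74, and 14.71 and 14.61. Rps28, a small protein near the mRNA exit, stayed between 7.83 and 7.92 on all arrays, also without overlap. Rps14, known from the loss of part of a chromosome in human 5q- syndrome, differed by -0.0085, and its arrays lay between 8.50 and 8.68 in both groups.

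Rps20 was the only small subunit gene with both combination arrays above both vehicle arrays. It read 9.27 and 9.07 with vehicle and 9.29 and 9.32 with the combination, a difference of 0.13 (95% interval -0.24 to 0.50). The margin was thin, since vehicle replicate 1 lay just beneath the combination arrays. Rps4x, which is X-linked, differed by -0.039, and Rps3a1 by 0.018. Rps29, Rps9 and Rps24 differed by 0.038, 0.057 and -0.063, with groups that overlapped.

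Large subunit genes had a median difference of -0.032, with 18 of 25 lower. Without combination replicate 2 this median was 0.014. Rplp0, the base of the stalk that recruits elongation factors, is often used as a reference transcript. It read 13.87 and 13.91 with vehicle and 13.88 and 13.88 with the combination, a difference of -0.010 (95% interval -0.34 to 0.32). The vehicle arrays enclosed both combination arrays. Rpl19 read 13.85 and 13.88, and 13.88 and 13.81, and differed by -0.017. Rpl41, whose protein is among the shortest known, had the highest mean signal of the 43 genes (19.63) and differed by -0.019. Its other probe set, on the gene's own chromosome, had a mean of 12.22 and differed by -0.029. A signal also depends on the probes, so the order of signals is not an order of transcript amounts.

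Rpl11, whose protein together with that of Rpl5 binds MDM2 and so stabilises p53 when ribosome assembly fails, stayed between 7.14 and 7.21 on all arrays. Rpl8, Rpl4 and Rpl37a differed by -0.051, -0.058 and 0.028. Rpl6 read 10.74 and 10.83 with vehicle and 10.65 and 10.67 with the combination, a difference of -0.13 (95% interval -0.47 to 0.21) without overlap. Rpl7a read 16.73 and 16.61, and 16.61 and 16.52, which is just short of overlap, and differed by -0.11. Its weaker probe set, on the gene's own chromosome, differed by -0.081. Using such home probe sets for the 5 genes with several left the median of the 43 genes at -0.039.

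In Rpl32l and Rpl6l, whose symbols name them after Rpl32 and Rpl6, the difference between the groups changed most from replicate number 1 to 2. It was 0.49 within number 1 and -0.12 within number 2 for Rpl32l, and 0.40 and -0.14 for Rpl6l. Rpl32l read 14.54 and 14.68 with vehicle and 15.03 and 14.56 with the combination. It had the highest difference of all 43 genes, 0.19 (95% interval -0.36 to 0.73), and combination replicate 1 alone stood above the rest. Without that array the difference was -0.052. Rpl6l read 12.69 and 13.05, and 13.09 and 12.90. Its lowest array was vehicle replicate 1, and without it the difference was -0.048.

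Among the paralogs, which can replace a ribosomal protein in some tissues or states, 6 of 7 listed were measured. Rps27l, a paralog of Rps27 that is known as a p53 target, read 13.42 and 13.25 with vehicle and 13.22 and 13.04 with the combination. The difference was -0.21 (95% interval -0.60 to 0.18), and the groups did not overlap. Rpl22l1, the partner and counterpart of Rpl22 in blood development, read 14.70 and 14.61, and 14.53 and 14.40, a difference of -0.19 (95% interval -0.54 to 0.17). Rpl22 itself differed by 0.016, and its combination arrays, at 8.91 and 8.50, lay outside its vehicle arrays on either side. Rpl7l1 read 11.07 and 10.97, and 10.86 and 10.86, without overlap. Its relative Rpl7 read 10.30 and 10.39, and 10.29 and 10.38, and differed by -0.0094. The difference between a paralog and its relative was not tested.

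The other 3 paralogs were near background. Rpl3l, a muscle paralog, had a mean of 3.74, Rpl10l, a testis paralog, 4.38, and Rpl39l, also known from testis, 4.66, all beneath the highest background probe set. Rpl3l and Rpl10l were 0.15 and 0.16 higher with the combination, at a signal where no expression can be told from background. Rpl39, which Rpl39l resembles, had a mean of 10.10 and differed by -0.040. Rps4l is listed only beside other symbols and is not given a value.

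Of 18 listed Diamond-Blackfan anaemia genes 11 were measured. Besides Rps26 none had an unadjusted p under 0.05. Their median difference was -0.056, and 9 were lower, or 81.8%. Over all features 44.6% were lower, and 2.44% were lower at that p. For the other genes of the same signal range these shares were 65.0% and 4.44%, with a median difference of -0.062. Rps19, the gene most often affected in that disease, read 8.85 and 8.67 with vehicle and 8.82 and 8.60 with the combination. Here the replicates differed more than the groups, with both arrays numbered 2 beneath both arrays numbered 1. Rps24, Rpl31, Rpl35 and Rpl27 differed by -0.063, 0.0081, -0.038 and -0.060.

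Within the arrays numbered 1, the median difference of the 43 genes was -0.055, and within those numbered 2 it was -0.054. For the other genes of the same signal range these medians were -0.078 and -0.055. Of the 43 genes, 18 were lower within both numbers, or 41.9%, against 23.4% of all features and 41.8% of the genes of the same signal range. Another 4, or 9.30%, were higher within both, against 31.0% of all features and 19.5% of the genes of the same signal range. Of the 331 other genes with a mean above 16, 39.9% were lower within both and 9.06% higher within both. The remaining 21 had opposite signs in the 2 numbers. For the 43 genes number 2 was itself lower than number 1, by a median of -0.084 on the vehicle arrays and -0.036 on the combination arrays. The same medians were -0.095 and -0.065 for the other genes of the same signal range, and 0.029 and -0.0076 for all features. For 34 of the 43 genes the difference between the groups was smaller than the larger of the 2 differences between replicates. The same count was not made for other genes, so it cannot be read as a trait of these genes.

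**Figure D3:**
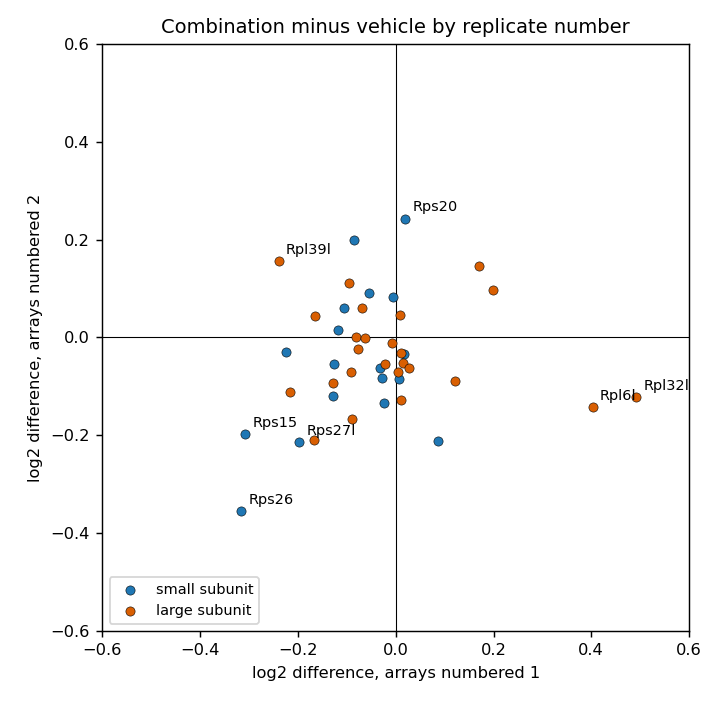
Log2 difference (combination minus vehicle) of each ribosomal protein gene between the arrays numbered 1 (horizontal) and those numbered 2 (vertical), with small subunit genes in blue and large subunit genes in orange. Rps26 lies alone at the lower left (-0.32 and -0.35), Rpl32l and Rpl6l lie far to the right (0.49 and 0.40) but beneath 0 on the vertical axis, and most genes crowd around the origin.

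The other genes that make or run ribosomes gave these values in the same fit, in which none passed the threshold over all features. The counts stand beside 44.6% of all features lower, 2.44% lower at an unadjusted p under 0.05 and 3.14% higher at that p. For the other genes of the same signal range as the ribosomal protein genes, 65.0% were lower and 4.44% were lower at that p. Of 12 measured elongation factors and other TOP genes 11 were lower, with a median of -0.12, and 0 had an unadjusted p under 0.05. Eef2, which moves the ribosome along, read 16.47 and 16.33 with vehicle and 16.21 and 16.26 with the combination. The histone chaperone gene Nap1l1 differed by -0.20. Eef1a1, which brings the tRNAs, differed by -0.030 and Tpt1 by 0.023. Fau, which encodes a small subunit protein fused to a ubiquitin-like one, differed by 0.081. Of 22 initiation factors 19 were lower with a median of -0.10, and Eif4e, the cap-binding protein, read 11.70 and 11.88, and 11.34 and 11.49. Eif3i, of the scaffold eIF3, differed by -0.26.

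Of 18 genes of mTORC1 and its control of TOP mRNAs, 2 were higher and 2 lower at an unadjusted p under 0.05 (3.14% and 2.44% of all features), with a median of -0.17. Larp1 read 14.25 and 14.01 with vehicle and 13.62 and 13.39 with the combination, a difference of -0.63 (limma unadjusted p = 0.015, adjusted p = 0.79). The groups did not overlap. Ddit4 and Deptor, both inhibitors of mTOR, read 6.13 and 5.74 against 7.72 and 7.03, and 7.46 and 7.49 against 8.20 and 8.57. The kinase gene Mtor differed by -0.31 and Eif4ebp1, whose protein blocks Eif4e, by -0.17. These are levels of mRNA and say nothing of the activity of the kinase.

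Of 30 measured factors that assemble ribosomes, 28 were lower, 6 of them at an unadjusted p under 0.05 (44.6% and 2.44% of all features), with a median of -0.21 (-0.23 within either number). Polr1b, a subunit of RNA polymerase I, differed by -0.82 and Bop1, of the PeBoW complex of the large subunit, by -0.57. The transcription factor gene Myc, which drives both classes, differed by -0.77. Whether the 2 classes differ was not tested. Proteins of the mitochondrial ribosome, 75 in number, had a median of -0.097, with 58 lower and 4 at an unadjusted p under 0.05, all lower. Those 4 are 5.33% of the list, against 2.44% of all features and 4.44% of the genes of the signal range given above. The genes of that range are brighter, with a median signal of 11.62 against 8.75 for this list. Mrpl19 and Mrpl2 differed by -0.54 and -0.45. In 10 genes of p53 and its targets the median was -0.094. Trp53inp1 differed by 0.82, Mdm4 by -0.37 and Mdm2 by -0.16.

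**Figure D4:**
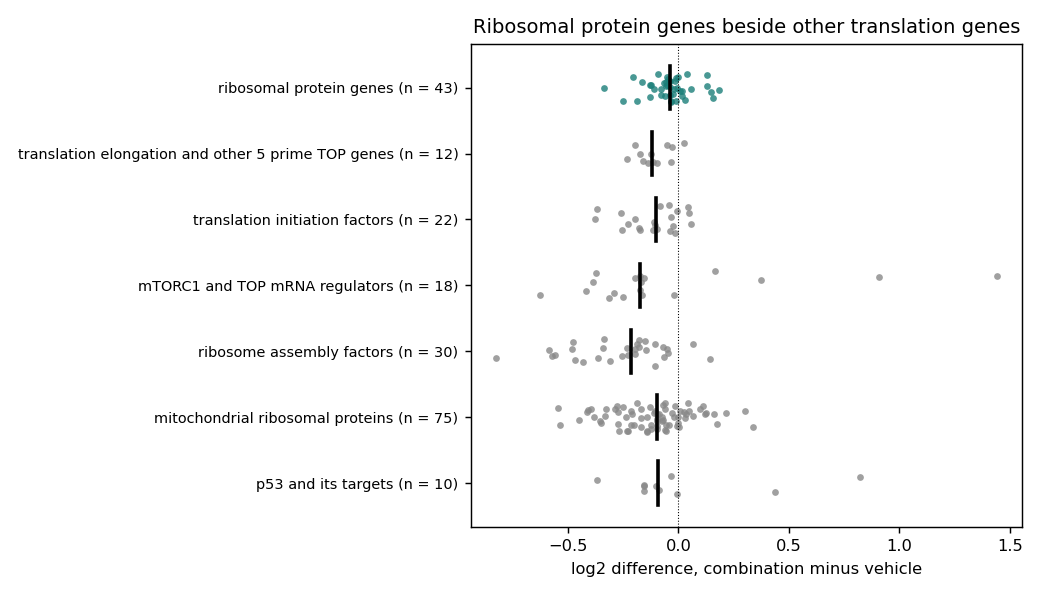
Log2 difference (combination minus vehicle) of each measured gene, 1 point per gene with random vertical scatter, for the ribosomal protein genes (green) and 6 lists of related genes (grey), with a black bar at the median of each. The ribosomal protein genes reach from -0.34 to 0.19 around a median of -0.039. Elongation factors and other TOP genes reach from -0.23 to 0.023, and the assembly factors from -0.82 to 0.14. The lists differ in signal, with medians of 13.23, 13.62 and 9.19 in this order.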

How the data were processed

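The authors deposited log2 probe-set signals. Per the submitters' processing notes, these came from the Transcriptome Analysis Console with RMA. No version, setting or genome build is given in the sources used here. RMA brings all arrays to a common distribution, so a shift shared by most transcripts would not be seen. Of 72688 rows, 6732 control rows were left out, and 65956 features were tested. Ribosomal protein genes keep the symbols of the platform annotation, and other symbols were updated through Entrez identifiers to RefSeq (GRCm38.p6). Chromosome and gene class of the 43 came from RefSeq, by Entrez identifier for 41 and by symbol otherwise. The identifier's chromosome matched RefSeq's for 99.57% of 22631 features.

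The test was limma 3.58.1 (R 4.3.3), lmFit and eBayes, two-sided, with group as the only term and Benjamini-Hochberg adjustment over all features. Every p named here is from it, except those given over the alternatives, which are from those limma fits. Residual degrees of freedom were 2, and the prior added 2.59. The fit was tested on simulated data with planted differences far larger than those of the ribosomal protein genes. That check does not cover differences of their size. Members and lists were chosen with earlier results of these data known. Named were genes past the threshold, up to 6 members per direction with groups apart, the 3 brightest and 3 dimmest, a fixed set of paralogs and known members, and, for each list, the 2 genes with the smallest p and some fixed ones. Other members were named after their values were seen. Alternatives were a replicate block, each array left out, an intensity trend, a robust prior, 2 filters, 2 scalings, control rows kept, and other probe sets or members.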

Additional observations from a re-analysis of the deposited data

How the results depend on the processing

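The count of 0 ribosomal protein genes past limma's threshold held under every alternative fitted, with 0 to 1 genes at an unadjusted p under 0.05. Over all features 2 passed in the fit reported, 19 with the replicate number as a block, and 0 with an intensity trend, with either filter, after a second quantile normalization, with the control rows kept and without any 1 array. Rps26, the gene counted as lower at an unadjusted p under 0.05, had p between 0.0090 and 0.16 over the alternatives and an adjusted p of 0.63 to 1.00. The count of 1 became 0 with the replicate number as a block, with either filter, with the control rows kept, with the mean of all probe sets of a gene and without any 1 array (0 to 0). Its log2 difference for the chosen probe set stayed between -0.39 and -0.32. The replicate block changed no other count of ribosomal protein genes. Same-numbered arrays shared deviations across features (r = 0.33 between the differences of number 2 from number 1 in the 2 groups), but 2 pairs do not establish a pairing.

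The median of the ribosomal protein genes was -0.092 after centring each array and -0.078 to -0.0097 without 1 array. For the small subunit it was -0.098 to -0.018 without 1 array. For the large subunit it was -0.085 and -0.076 to 0.014, and for the other genes of the same signal range -0.12 to -0.010 without 1 array. The other medians moved by less than the spread between replicates. Of 797 values of named genes under alternatives, 53 had the opposite direction, in 31 genes, and 0 passed the threshold. After the second quantile normalization these were Rpl7 at 0.048, Rpl39 at 0.00083, Rplp0 at 0.0052, Rps14 at 0.012, Rpl8 at 0.0021 and Rpl10a at 0.018. After centring they were Rpl22 at -0.037, Tpt1 at -0.030, Rpl31 at -0.045, Rps3a1 at -0.035, Rpl37a at -0.025 and Rps29 at -0.014. Without 1 array the log2 difference spanned 0 for Eef1a1 (-0.069 to 0.0087), Eif4ebp1 (-0.54 to 0.20), Fau (-0.092 to 0.25), Rpl10a (-0.14 to 0.072), Rpl12 (-0.23 to 0.064), Rpl19 (-0.049 to 0.014), Rpl22 (-0.19 to 0.23), Rpl27 (-0.28 to 0.16), Rpl31 (-0.088 to 0.10), Rpl32l (-0.052 to 0.42), Rpl35 (-0.12 to 0.043), Rpl38 (-0.062 to 0.055), Rpl39l (-0.17 to 0.084), Rpl4 (-0.15 to 0.031), Rpl41 (-0.066 to 0.029), Rpl6l (-0.048 to 0.31), Rpl7 (-0.055 to 0.036), Rplp0 (-0.030 to 0.0088), Rps14 (-0.097 to 0.081), Rps19 (-0.16 to 0.060), Rps24 (-0.14 to 0.014), Rps29 (-0.012 to 0.089), Rps3a1 (-0.024 to 0.060), Rps3a2 (-0.093 to 0.047), Rps3a3 (-0.11 to 0.0026), Rps4x (-0.10 to 0.022), Rps9 (-0.055 to 0.17) and Tpt1 (-0.0039 to 0.050). The cause of these turns was not tested. Choosing the probe set on the gene's own chromosome, adding the 53 features with several symbols, and leaving out pseudogenes or dim members were chosen after seeing the data and gave medians of -0.039, -0.041, -0.040 and -0.040.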
